A study of Homo sapiens with 16 samples.

Results

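The comparison set SW480 cells that had received an empty vector against untransduced parental SW480 cells. It rested on 4 of 16 libraries, libraries I and II of each group, taken from the cell line, transduction and treatment given in the labels. SW480 is an established line from a primary human colon adenocarcinoma. The other line of the study, SW620, came from a lymph node metastasis of the same patient. All 4 libraries were untreated cells grown in DMEM with serum, and the parental group received no vector. The kind of vector, its promoter and whether the cells were a clone or a pool are not given in the sources used here. The remaining 12 libraries were SW480 with estrogen receptor beta (ERB, gene ESR2), and SW620 parental, with empty vector, with ERB, and with ERB after DMSO or estradiol. They entered the fit to estimate the spread.

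An empty vector is the control for gene delivery, since the cells pass through transduction without the gene under study. Several gene programs that differ between states of colon cancer cells were followed in both libraries. NF-kB factors switch on cytokine and adhesion genes. YAP and TAZ act with TEAD factors on genes of spread, matrix-attached cells. HNF and FOXA factors drive the genes of gut epithelium. ATF4 switches on enzymes, transporters and tRNA synthetases of amino acid supply when amino acids are short or the endoplasmic reticulum is stressed.

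Total counts were 15856301 and 18948283 in parental libraries I and II and 13621574 and 15354043 in empty vector libraries I and II. Genes with at least 1 read numbered 22822 and 24462 in the parental libraries, 20979 in empty vector library I and 19394 in library II. The 10 most abundant genes took 10.6% of the counts of empty vector library II, against 6.8% in library I and 5.23% and 4.72% in the parental libraries. The transduced gene of the ERB groups was absent from both groups compared here, with 2 and 2 ESR2 reads in parental cells and 2 and 4 with empty vector. Colon epithelial identity was present in part: the keratins KRT8, KRT18 and KRT19 and the gut factor CDX2 were expressed in all 4 libraries. KRT20 had 0 to 2 reads, CEACAM5 had 0 reads in each library, and GPA33, CDH17 and LGALS4 had 16 reads or fewer in each. EPCAM, an epithelial adhesion molecule, stood at 57.4 and 129 CPM in parental cells and at 174 and 43.4 CPM with empty vector, so that it was lowest in empty vector library II and parental library I. Summed over 10 identity genes, of which 3 keratins carried most, the level was 5612 and 3367 CPM in parental cells and 7666 and 17369 CPM with empty vector. The 9 leukocyte genes summed to 0.847 to 2.69 CPM, 7 endothelial genes to 0.587 to 1.43 CPM and 10 fibroblast genes to 10.1 to 29.2 CPM over the 4 libraries. These sums are counts per library total (CPM). Every CPM of a single gene below is also scaled by TMM factors, which correct for differences in composition. CPM compare a gene between libraries and not 2 genes with each other.

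Both empty vector libraries stood apart from parental SW480 on the genes that separate the 2 lines. A set of 300 genes was chosen after the values were seen: in both parental SW480 libraries they exceeded both parental SW620 libraries by 8-fold or more, at a level of at least 5 CPM. With empty vector these genes had a median of 2.2% of the parental SW480 level in library I and 2.1% in library II. The same median was 1.41 to 2.02% in the 10 SW620 libraries, and 17.1% and 21% in the 2 libraries of SW480 with ERB. None of the 300 genes reached 50% of the parental level in empty vector library I, and 5 did in library II. In the opposite set of 35 genes high in parental SW620, the 10 SW620 libraries stood at 47.2 to 110.4% of the parental SW620 level. Parental SW480 libraries stood at 4.58% and 5.59%, and the empty vector libraries at 28.8% and 66.2%. Both sets were chosen on the parental libraries, whose values are therefore fixed in part by the choice. Without the parental libraries, the SW620 range on the second set was 47.2 to 98.4%. Both libraries labelled SW480 empty vector therefore lay near the SW620 libraries on the first set. On the second, library II lay within the range of the SW620 libraries and library I between that range and parental SW480. The 2 SW480 libraries with ERB stood at 54.4% and 48.3% on the second set, also within the range of the SW620 libraries. Library I also lay within the range of the 10 SW620 libraries for 75.8% of all tested genes, library II for 33%, and the parental SW480 libraries for 60.3% and 45.4%. Whether the line, the vector or another difference between cultures gave these levels cannot be told apart, and every direction below is that of the libraries as labelled.

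**Figure D1:**
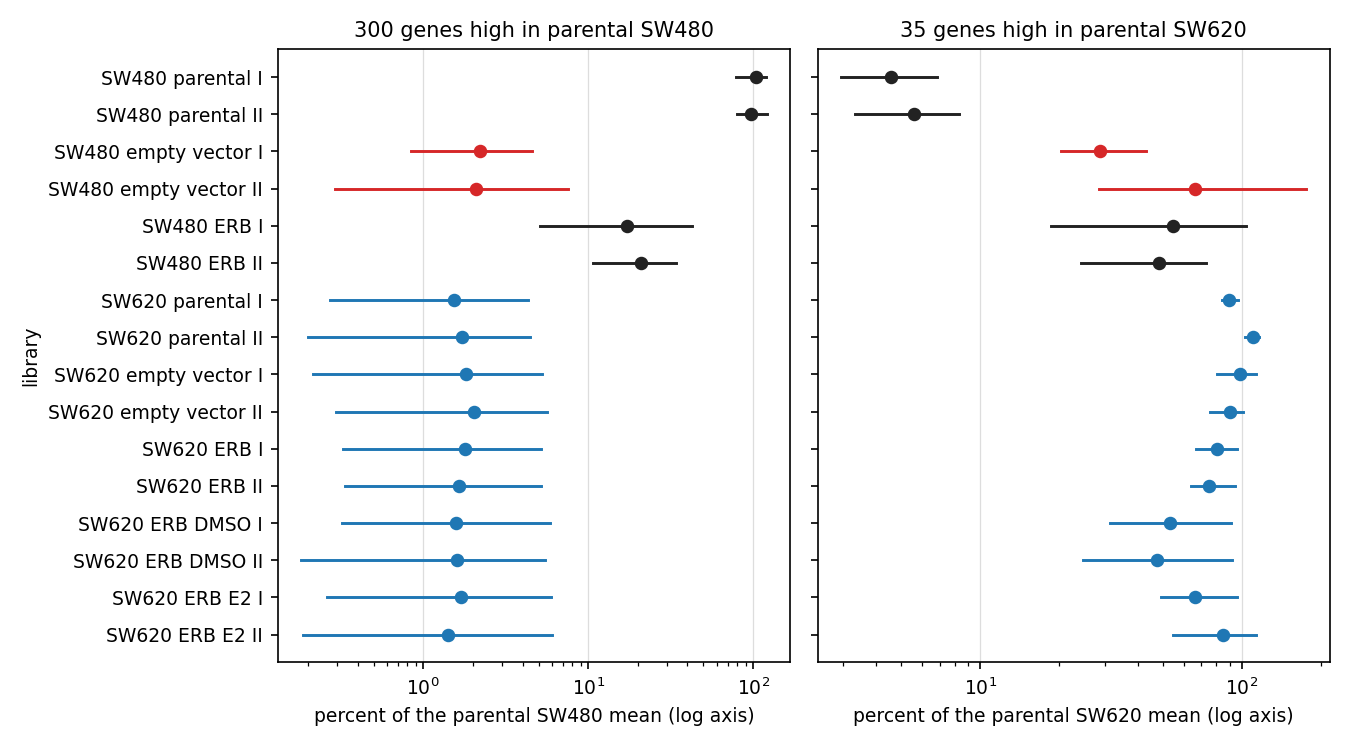
Each row is 1 of the 16 libraries; points are medians and lines the quartiles of 300 genes high in parental SW480 (left, percent of the parental SW480 mean) and 35 genes high in parental SW620 (right, percent of the parental SW620 mean), on log axes. The empty vector libraries of SW480 (red) sit at 2.2% and 2.1% on the left, beside the SW620 libraries, and at 28.8% and 66.2% on the right.

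The 2 empty vector libraries also differed from each other. Of 17464 genes tested, 1607 (9.2%) were at least 4-fold higher in library II than in library I and 1803 (10.3%) at least 4-fold lower, a count with no test since it sets 1 library against 1. Among genes at 5 CPM or more in the higher library, 2458 were at least 4-fold apart between the empty vector libraries, against 804 between the parental SW480 libraries, 171 between the SW480 libraries with ERB and 2 between the SW620 libraries with empty vector. For 2204 genes, 1 empty vector library lay above both parental libraries and the other below both. Genes higher in library II had transcripts with a median GC content of 61.5% and a median length of 2118.5 bases, genes higher in library I 40.3% and 4557 bases, and all tested genes 48.7% and 2945 bases. The 1070 genes at least 4-fold higher in parental library II than in parental library I had a median GC content of 38.6%, so parental library I and empty vector library II leaned to the same side. Medians with offsets that remove each library's trend with GC content and length are given for most lists below.

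Over all genes, the quasi-likelihood test of edgeR (p-values adjusted by Benjamini and Hochberg) called 5399 of 17464 genes (30.9%) at an adjusted p under 0.05, 2604 higher (14.9%) and 2795 lower (16%) with empty vector. Both empty vector libraries lay above both parental libraries for 3912 genes (22.4%) and below both for 4741 (27.1%). Of the called genes, 5190 had both empty vector libraries above or below both parental libraries. Of all called genes, 984 were at least 4-fold apart between the 2 empty vector libraries. For 1835 called genes the empty vector libraries were within 1.5-fold of each other, 667 higher and 1168 lower. Genes with no read in either empty vector library count as within 1.5-fold by construction. The spread in this fit is pooled over all 8 groups and is smaller than the spread between these libraries. A fit of the 6 SW480 libraries alone called 704 of 16031 genes, 107 higher and 597 lower. A fit of the 4 libraries compared called 1217 of 15731. Without empty vector library I the count was 10643, and without library II it was 2866. Without parental library II it was 2122, 784 higher and 1338 lower. On the authors' FPKM values, with a pseudocount of 1, 1137 genes were higher and 2544 lower, and the median of all genes shifted by -0.241 on the log2 scale relative to the counts; GC and length offsets shifted it by 0.103. The median log2 difference over all genes was -0.11 in the counts, and the values below are not shifted by it. List counts below from other fits are to be read against the count over all genes in the same fit, given above. They do not compare with the 14.9% and 16% of the main fit. The FPKM fit tested 19268 genes. Fits without 1 SW480 library tested 18043 to 18311 genes and leave 1 library in a group, so their list counts are descriptions. The labels do not say whether libraries I and II were separate cultures; the p-values describe the spread among libraries, which may be technical. In bulk RNA, fewer cells of a kind and less RNA per cell cannot be told apart.

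Inflammatory genes fell in both empty vector libraries. Of 39 listed targets of NF-kB and inflammation 32 were tested; 21 fell and none rose, and their median log2 difference from the parental mean was -2.31 (empty vector I) and -2.41 (empty vector II). The same medians over all genes were -0.06 and -0.25. In SW480 libraries I and II with ERB the list stood at -1.77 and -1.71, and all genes at -0.17 and -0.03. CXCL1, a chemokine that attracts neutrophils, stood at 30.7 and 31.8 CPM in the parental libraries and at 0.601 and 0.334 CPM in empty vector libraries I and II (log2 -6.00, SE 0.49, adjusted p = 2.32e-05). ICAM1, an adhesion molecule that binds leukocytes, stood at 255 and 227 against 6.23 and 14.2 CPM (log2 -4.56, SE 0.43, adjusted p = 6.2e-05). CSF2, the growth factor GM-CSF, went from 22.1 and 18.9 to 0.0751 and 0.111 CPM (log2 -7.71, SE 0.77, adjusted p = 7.83e-05), and TNFAIP2 from 224 and 210 to 2.93 and 5.57 CPM (log2 -5.69). The groups did not overlap for any of these 4 genes, and both empty vector libraries were low. The fit of the 6 SW480 libraries called 13 of 32, all lower. Without empty vector library II 22 of 34 were lower, and without library I 24 of 34 were lower and 1 higher. With GC and length offsets its median stood at -2.80 (library I) and -2.73 (library II). The acute phase gene SAA2 and the chemokine gene CCL2 had no read in either empty vector library. With a floor of 3 reads over both libraries they were at least 265-fold and at least 96.5-fold lower than in parental cells; SAA2 shares reads with its near-identical copy SAA1 and is uncertain, and floors cover counting error only. DESeq2 did not call CCL2 (adjusted p = 0.184), nor CHST2, OLR1, PIP5K1B and SLC1A3, which also had no read in either empty vector library.

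The promoters of 3 chemokine genes and TNFAIP3 are shown because these genes moved together. In RefSeq promoter windows of 300 bases (250 before to 50 after the start, build GRCh38.p14), the letters GGG and TTTCC with any 2 bases between them, an NF-kB type motif searched on both strands, were present in 13 of the 29 listed genes that had a window. Of all 27305 genes in the same table, 2.3% had a match. The 13 genes included IL6 and CXCL5, which had too few reads to be tested. The list was drawn up as targets of NF-kB, so this share says nothing about these libraries. Shown are 120 bases of the window, 5′ to 3′ on the gene's strand, with each match in capitals. A match is a description of the letters and shows no binding. They are CXCL1 at chr4:73869273-73869392 on the plus strand, CXCL2 at chr4:74099196-74099315 and CXCL3 at chr4:74038690-74038809 on the minus strand, and TNFAIP3, an inhibitor of NF-kB signalling, at chr6:137867139-137867258 on the plus strand.
CXCL1: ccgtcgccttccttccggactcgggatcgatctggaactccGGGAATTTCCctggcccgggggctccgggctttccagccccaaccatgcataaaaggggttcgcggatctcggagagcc
CXCL2: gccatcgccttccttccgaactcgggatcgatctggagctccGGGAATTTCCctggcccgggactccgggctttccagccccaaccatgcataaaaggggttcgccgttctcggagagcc
CXCL3: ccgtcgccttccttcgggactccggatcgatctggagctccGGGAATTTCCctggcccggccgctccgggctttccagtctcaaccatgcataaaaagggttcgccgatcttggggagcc
TNFAIP3: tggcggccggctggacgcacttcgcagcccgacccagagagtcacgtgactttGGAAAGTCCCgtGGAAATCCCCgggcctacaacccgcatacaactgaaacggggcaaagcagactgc
CXCL2, CXCL3 and TNFAIP3 were picked for their promoters after their values were seen. CXCL2 stood at 6.55 and 7.94 CPM in parental cells and at 0.225 and 0 CPM with empty vector. CXCL3 stood at 9.26 and 8.95 against 1.73 and 0.779 CPM, and TNFAIP3 at 11 and 23.5 against 4.06 and 1.22 CPM. For each of the 3 genes both empty vector libraries were below both parental libraries. CXCL1, CXCL2 and CXCL3 are close paralogs, and how the counting split their shared reads is uncertain.

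Antigen presentation and interferon genes fell in part. Of 34 interferon-stimulated and RNA-sensing genes 12 fell and 2 rose, with medians of -0.71 (library I) and -0.78 (library II), and -0.69 and 0.00 with GC and length offsets. Without parental library II 5 fell and 1 rose, with a list median of -0.09 against -0.99, and without empty vector library II 7 fell and 1 rose. IFITM1, a membrane protein that restricts viruses, stood at 4.32 and 4.23 CPM in parental cells and had no read with empty vector. USP18, which restrains interferon signalling, moved the other way, from 1.61 and 1.57 to 5.48 and 7.12 CPM (log2 1.98, adjusted p = 0.00465). Of 19 genes of antigen presentation by MHC class I, 8 fell and 1 rose, with medians of -1.09 (library I) and -0.25 (library II), and -1.19 and -0.94 with GC and length offsets. Leaving out parental library II gave 5 that fell and none that rose. PSMB9, a subunit of the immunoproteasome, stood at 32.1 and 14.5 against 0.676 and 3.45 CPM (log2 -3.53, adjusted p = 0.00358). In the fit of the 6 SW480 libraries 2 of the interferon genes and none of the antigen presentation genes were called. 

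Matrix, adhesion and YAP/TAZ genes fell in both libraries. Of 26 matricellular and matrix adhesion genes 16 fell and 4 rose, and of 21 YAP/TAZ genes 17 fell and 1 rose. The matrix medians were -1.57 (library I) and -1.75 (library II), and -1.50 and -1.56 with GC and length offsets. The YAP/TAZ medians were -2.56 (library I) and -2.92 (library II), and -2.55 and -2.59 with GC and length offsets. In SW480 libraries I and II with ERB, without offsets, the matrix medians were -0.83 and -1.05. The YAP/TAZ medians there were -2.13 and -1.46. FN1, the matrix protein fibronectin, stood at 530 and 557 CPM in parental cells and at 13.6 and 9.46 CPM with empty vector (log2 -5.55, SE 0.35, adjusted p = 8.83e-06). CYR61, a secreted matricellular protein and YAP target, stood at 241 and 170 against 5.48 and 4.56 CPM (log2 -5.35, SE 0.36, adjusted p = 9.75e-06). NT5E, the surface enzyme CD73, stood at 92.8 and 86.4 against 0.826 and 0.445 CPM, and ANKRD1, a nuclear cofactor and YAP target, at 104 and 158 against 0.901 and 0.445 CPM. Levels in the empty vector libraries were thus under 1 CPM for NT5E and ANKRD1 and under 15 CPM for all 4 genes. The hyaluronan receptor gene CD44 stood at 105 and 67.7 against 4.73 and 3.12 CPM (log2 -4.45, adjusted p = 2.32e-05). In the fit of the 6 SW480 libraries 8 of 25 matrix genes and 7 of 21 YAP/TAZ genes were called, all lower.

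The TEAD type letters GGAATG, searched on both strands, occurred in the 300-base windows of 10 of the 15 YAP/TAZ genes with a window and of 16.7% of all genes in the table. Those of 2 genes that fell are shown, again as 120 bases with matches in capitals. They are ANKRD1 at chr10:90921208-90921327 and CTGF (CCN2 in RefSeq) at chr6:131951442-131951561, both on the minus strand.
ANKRD1: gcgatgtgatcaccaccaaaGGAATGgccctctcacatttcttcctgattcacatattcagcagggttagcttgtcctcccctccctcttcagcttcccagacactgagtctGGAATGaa
CTGF: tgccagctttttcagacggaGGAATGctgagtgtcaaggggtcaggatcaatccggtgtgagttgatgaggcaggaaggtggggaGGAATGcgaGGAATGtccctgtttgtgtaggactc
CTGF, a matricellular growth factor picked for its promoter after its values were seen, stood at 23.7 and 15.7 CPM in parental cells and at 2.85 and 4.01 CPM with empty vector (log2 -2.52, adjusted p = 0.000808).

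Integrins, the receptors that hold cells to matrix, did not move as a family: 5 of 15 fell and 2 rose. ITGA1 stood at 72.1 and 391 CPM in parental cells and at 1.35 and 0.223 CPM with empty vector, and ITGA3 at 679 and 306 against 10.3 and 46.9 CPM. ITGAV and ITGB5 fell too, with log2 differences of -4.60 and -1.96. The median of the integrin list changed sign with GC and length offsets, from -1.05 to 0.03. Of 19 mesenchymal transition genes 4 rose and 4 fell. MSN, which links membrane to actin, stood at 308 and 270 against 842 and 791 CPM (SE 0.23 on the log2 scale, adjusted p = 0.000799), while the receptor kinase gene AXL fell (log2 -2.34, adjusted p = 0.00133). Of the 10 fibroblast markers 5 were tested, of which 2 rose and 1 fell. ACTA2, smooth muscle actin, fell from 18.6 and 13.3 to 0.225 and 1.11 CPM. COL1A1, a collagen chain, rose from 2.41 and 2.97 to 4.58 and 14.9 CPM (log2 1.84, adjusted p = 0.0153), and PDGFRB, a growth factor receptor, from 0.556 and 1.004 to 1.35 and 6.01 CPM (log2 2.18, adjusted p = 0.0201). Both rises lost their call without empty vector library II (COL1A1 log2 0.75, adjusted p = 0.176; PDGFRB log2 0.75, adjusted p = 0.325) and without either parental library (adjusted p from 0.0523 to 0.0723). Per library total, the fibroblast list as a whole stood at 23 and 29.2 CPM in parental cells and at 10.1 and 13.7 CPM with empty vector, with COL3A1, DCN and FAP at 0 reads in all 4 libraries.

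Some single genes fell from high levels in both libraries. TGM2, the crosslinking enzyme transglutaminase 2, stood at 9239 and 3974 CPM in parental cells and at 79.8 and 209 CPM with empty vector (log2 -5.52, SE 0.57, adjusted p = 9.66e-05). GABARAPL1, an autophagy protein of the ATG8 family, went from 534 and 429 to 4.06 and 4.23 CPM (log2 -6.86, SE 0.39, adjusted p = 4.74e-06). SLC2A3, the glucose transporter GLUT3, went from 898 and 894 to 46.2 and 35 CPM (log2 -4.46, SE 0.34, adjusted p = 1.82e-05). KRT5, a basal keratin, stood at 851 and 470 against 13.3 and 36.1 CPM (log2 -4.75, adjusted p = 0.000109). No empty vector library overlapped a parental one for these 4 genes, and the SW480 libraries with ERB stood at 3813 and 2247 CPM for TGM2 and at 492 and 322 CPM for KRT5. With SAA2 and CCL2, 8 other genes at no read in either empty vector library had the largest falls taken by the rule on equal libraries. At 0 reads their ratio between the libraries is fixed by the floor and shows no agreement. These were CTSS, a lysosomal protease (at least 292-fold lower), PIP5K1B (at least 216-fold), CHST2 (at least 179-fold), GULP1 (at least 174-fold), SLC1A3, a glutamate transporter (at least 137-fold), and OLR1 (at least 140-fold). NPTX2 and PLCB4 were at least 95.8-fold and at least 95.6-fold lower. In all, 292 tested genes had no read in both empty vector libraries, and 34 had none in both parental libraries.

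**Figure D2:**
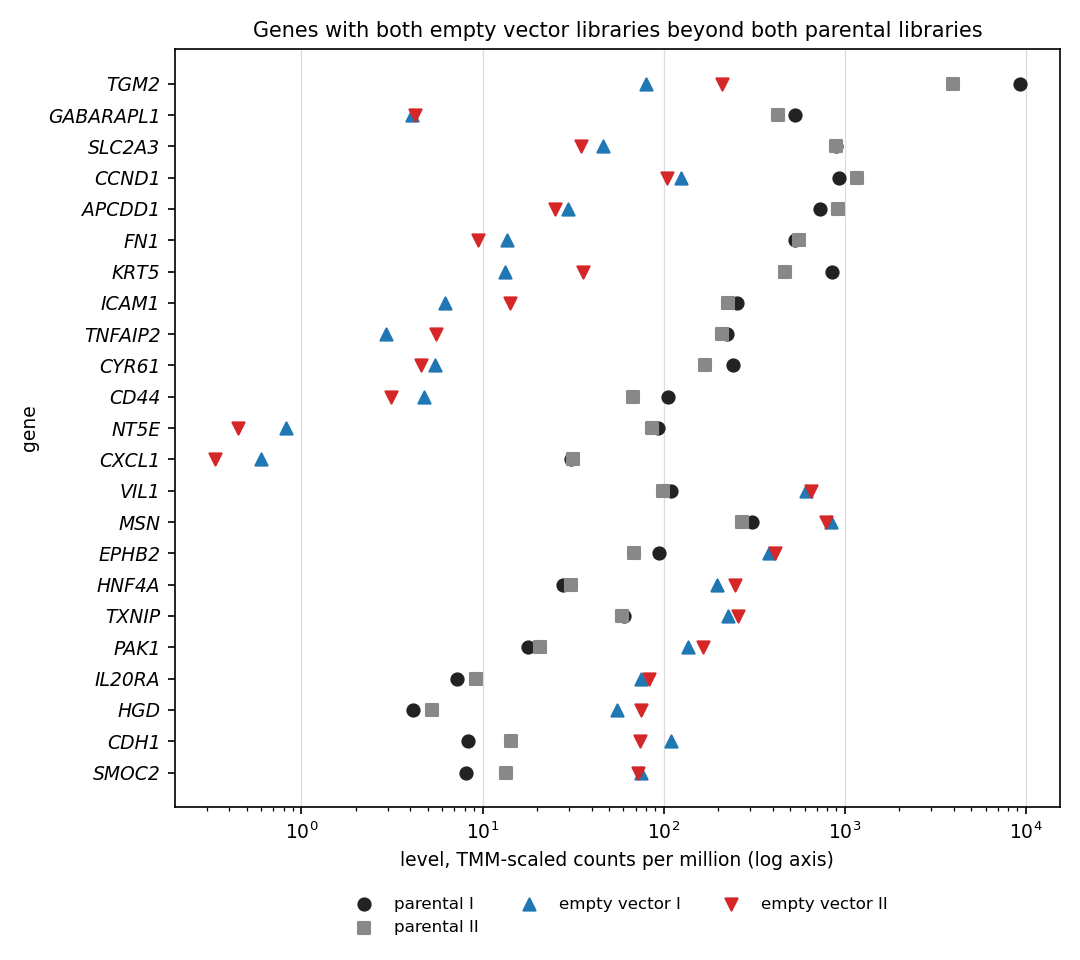
Levels of 23 genes in TMM-scaled CPM on a log axis, 1 point per library. For genes from TGM2 to CXCL1 both empty vector libraries (triangles) lie below both parental libraries, and for genes from VIL1 to SMOC2 they lie above; TGM2 falls from 9239 and 3974 to 79.8 and 209 CPM and HNF4A rises from 27.7 and 30.6 to 198 and 248 CPM.

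Among WNT pathway genes the largest changes ran in both directions. APCDD1, a membrane inhibitor of WNT signalling, stood at 726 and 918 CPM in parental cells and at 29.7 and 25.2 CPM with empty vector (log2 -4.90, SE 0.30, adjusted p = 6.42e-06). The secreted antagonist genes DKK1 (34 and 30.4 against 0.526 and 0.111 CPM) and DKK3 (59.8 and 45.6 against 1.73 and 1.78 CPM) fell as well, among 9 that fell and 4 that rose of 19 WNT ligands and antagonists. Of 25 WNT feedback and stem cell targets 9 rose and 6 fell. SMOC2, a crypt base matrix protein, rose from 8.09 and 13.5 to 75.3 and 72.2 CPM (log2 2.77, SE 0.29, adjusted p = 9.66e-05). EPHB2, a receptor of crypt cells, rose from 94 and 69 to 380 and 414 CPM (log2 2.28, SE 0.27, adjusted p = 0.000192), and EPHB3 from 9.7 and 10.1 to 51.7 and 115 CPM. Of the 15 EPH receptors and ephrins 5 rose and 6 fell, with EPHA4 down from 23.3 and 52.2 to 1.43 and 1.22 CPM. CCND1, cyclin D1 and a WNT target, stood at 933 and 1177 against 125 and 104 CPM (log2 -3.21, SE 0.29, adjusted p = 4.88e-05).

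Gut epithelial regulators rose in both libraries. Of 28 listed intestinal transcription factors 19 were tested, of which 9 rose and 2 fell. Their medians were 1.37 (library I) and 1.19 (library II), and 1.72 and 1.20 with GC and length offsets. Without offsets they were 1.16 and 1.17 in SW480 libraries I and II with ERB. The untested factors ATOH1 and CDX1 had 0 reads in the libraries compared. HNF4A stood at 27.7 and 30.6 CPM in parental cells and at 198 and 248 CPM with empty vector (log2 2.94, SE 0.24, adjusted p = 2.68e-05). FOXA2 rose from 15.4 and 12.2 to 75.5 and 161 CPM and FOXA3 from 9.14 and 5.63 to 50.3 and 155 CPM. These 3 factors were higher in both empty vector libraries, with library II above library I. CDX2 did not pass the test, at 9.02 and 7.72 against 9.54 and 24.5 CPM (log2 1.02, adjusted p = 0.0726), and was called without empty vector library I (log2 1.54, adjusted p = 0.00261). The fit of the 6 SW480 libraries called 4 of the factors, all higher.

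Some differentiation genes of gut epithelium rose with them, while many others had too few reads to be tested. Of 33 listed brush border genes 15 were tested, of which 7 rose and none fell. Of 22 listed goblet, trefoil and mucin genes 9 were tested, of which 5 rose and 1 fell. Over the 4 libraries compared, the untested markers SI and CLCA1 had 0 reads, ALPI and FABP2 1 read each and MUC2 3 reads. VIL1, the actin bundler villin, stood at 110 and 98.8 CPM in parental cells and at 610 and 652 CPM with empty vector (log2 2.60, SE 0.24, adjusted p = 5.58e-05). USH1C, the brush border scaffold harmonin, went from 32.1 and 27.7 to 176 and 330 CPM, and CDHR2, a cadherin of microvilli, from 0.309 and 0.436 to 6.16 and 18.9 CPM. TFF3, a trefoil peptide of goblet cells, stood at 3.33 and 4.67 against 28.9 and 188 CPM (log2 4.75, SE 0.74, adjusted p = 0.000886), 6.5-fold higher in library II than in library I. Of 31 epithelial junction and polarity genes 13 rose and 4 fell, and their median was 0.66 (library I) and -0.06 (library II). CDH1, epithelial cadherin, rose from 8.27 and 14.4 to 110 and 74.1 CPM (log2 3.02, SE 0.42, adjusted p = 0.000434). ESRP2, an epithelial splicing factor, and F11R, a tight junction protein, rose with log2 differences of 1.73 and 1.63, and the placental cadherin gene CDH3 fell (log2 -2.21). The median of the junction list changed sign on FPKM values, from 0.29 to -0.16. With GC and length offsets its medians were 0.80 (library I) and 0.64 (library II), so the library II value changed sign too and the gap between the libraries narrowed. The offset medians were 1.995 and 2.38 for brush border genes and 1.60 and 1.33 for goblet genes. In SW480 libraries I and II with ERB they were 2.14 and 1.91 for brush border genes and 1.34 and 1.16 for goblet genes. Without empty vector library II, 7 junction genes rose and 3 fell; the fit of the 6 SW480 libraries called 1.

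Among all genes that rose by nearly the same amount in both libraries, LIPC, hepatic lipase, stood at 0.865 and 1.18 CPM in parental cells and at 17 and 16.5 CPM with empty vector (log2 4.01, SE 0.33, adjusted p = 2.33e-05). HGD, an enzyme of tyrosine breakdown, stood at 4.14 and 5.24 against 55 and 75.4 CPM, and IL20RA, a cytokine receptor chain, at 7.23 and 9.21 against 75.5 and 82.7 CPM. PAK1, a kinase of the actin cytoskeleton, rose from 17.9 and 20.8 to 136 and 165 CPM (log2 2.96, SE 0.25, adjusted p = 3.14e-05). MOCOS, GPR132, GPR39 and 2 transcripts without an established name, RP11-297L17.2 and CTD-2147F2.1, completed these 10 genes with CDH1, with log2 differences from 2.97 for GPR39 to 3.31 for RP11-297L17.2. All 10 lay above both parental libraries in both empty vector libraries. Without strand information on the counting, reads of a transcript and of a gene overlapping it cannot be told apart.

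Amino acid stress genes stood high in empty vector library II. Of 24 ATF4 and CHOP stress effectors 12 rose and 2 fell in the test, but their median was -0.05 (library I) and 2.42 (library II), and 0.00 and 1.76 with GC and length offsets. Of the 24, 14 were at least 4-fold higher in library II than in library I. CHAC1, an enzyme that breaks down glutathione, stood at 2.84 and 1.44 CPM in parental cells, 6.99 CPM in library I and 369 CPM in library II (log2 6.47, SE 1.31, adjusted p = 0.00429). INHBE, a hormone subunit induced by stress, stood at 0.247 and 0.524 CPM, then 2.18 and 137 CPM. DDIT4, an inhibitor of mTORC1, stood at 4.82 and 4.84, then 25.2 and 644 CPM (log2 6.11, SE 1.06, adjusted p = 0.00172). Library I was above both parental libraries for the 3 genes, and library II was far above library I. TRIB3, a pseudokinase of the same pathway chosen after its values were seen, stood at 51.9 and 30.6, then 118 and 2652 CPM. DDIT3, the factor CHOP itself, did not pass the test, at 27.9 and 29.9, then 16.5 and 47.3 CPM (adjusted p = 0.795). Without empty vector library II the list had 6 members higher and 6 lower, the fit of the 6 SW480 libraries called 1 (higher), and on FPKM values 5 rose and 4 fell. Without parental library II the call of CHAC1 was lost (log2 6.03, adjusted p = 0.0544), and 3 members rose and 1 fell.

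**Figure D3:**
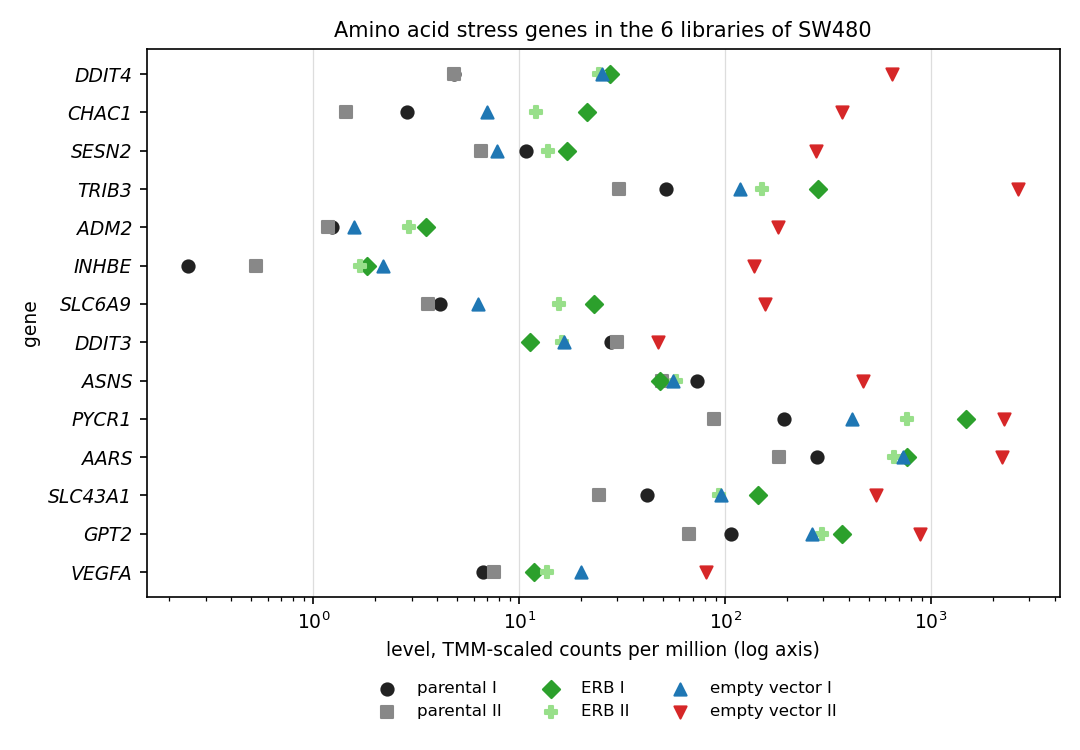
Levels of 14 amino acid stress genes in the 6 SW480 libraries, in TMM-scaled CPM on a log axis, 1 point per library. Empty vector library II (red) is the highest for each gene, at 369 CPM for CHAC1 against 6.99 CPM in empty vector library I; TRIB3, DDIT3 and ASNS were added after their values were seen.

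Several of the largest ratios between the 2 empty vector libraries belonged to such genes. Library II over library I was 120-fold for UNC5B, a netrin receptor, 114-fold for ADM2, a peptide hormone, 63.1-fold for INHBE, 52.9-fold for CHAC1 and 35.5-fold for SESN2, a leucine sensor. FGF21, a hormone of the stress response, had no read in the parental libraries or library I and stood at 17.8 CPM in library II, 79-fold above the floor of 3 reads in library I. BBC3, a mediator of cell death, KM-PA-2, NUPR1 and NDUFA4L2 completed these 10 genes with ratios of 73.1, 85.9, 56.8 and 36.1. All 4 stood at or below the 3-read floor of 0.225 CPM in library I, so the floor is the denominator of these ratios. BBC3 did not pass the test between groups, at 5.68 and 4.15 CPM in parental cells against 0.15 and 16.5 CPM, and neither did KM-PA-2 (adjusted p = 0.0981). NUPR1 lost its call without empty vector library II (log2 1.03, adjusted p = 0.67) and without parental library II (log2 4.63, adjusted p = 0.13). In the other direction the largest ratios included those of GTF2IP1, AC083899.3, PAPD5, RP11-90H3.1, ZHX1, SLC25A36, CEP76, ERCC6L and SNX4. SLC25A36, a mitochondrial carrier, was the 1 called gene of these 9, at 15.6 and 76 CPM in parental cells against 7.06 and 0.334 CPM (log2 -3.59, adjusted p = 0.0277).

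The letters TGATGNAA, an ATF4 and C/EBP type motif searched on both strands, were looked up in the windows of the genes of amino acid supply. They occurred in 5 of 19 ATF4 and CHOP effectors with a window and 4 of 13 synthesis enzymes. They also occurred in 5 of 12 tRNA synthetases and 5 of 13 transporters, against 4.5% of all genes in the table. The synthesis enzymes with a match included BCAT1, which had too few reads to be tested. CHAC1 and FGF21 are shown for their ratio between the libraries, ASNS, asparagine synthetase, and AARS, alanyl-tRNA synthetase (AARS1 in RefSeq), as enzymes of the same program. The positions are chr15:40953242-40953361 and chr19:48755404-48755523 on the plus strand for CHAC1 and FGF21, and chr7:97872409-97872528 and chr16:70289594-70289713 on the minus strand for ASNS and AARS.
CHAC1: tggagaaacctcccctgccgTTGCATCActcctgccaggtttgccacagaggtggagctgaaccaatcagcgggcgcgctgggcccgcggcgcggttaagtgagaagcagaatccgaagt
FGF21: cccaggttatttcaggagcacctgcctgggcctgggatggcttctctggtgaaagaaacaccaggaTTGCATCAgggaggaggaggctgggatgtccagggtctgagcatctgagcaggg
ASNS: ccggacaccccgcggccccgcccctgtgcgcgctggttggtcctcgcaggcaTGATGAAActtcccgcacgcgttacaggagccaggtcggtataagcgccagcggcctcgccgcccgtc
AARS: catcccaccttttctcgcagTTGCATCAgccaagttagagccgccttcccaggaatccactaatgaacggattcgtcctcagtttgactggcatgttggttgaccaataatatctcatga
ASNS, picked for its promoter after its values were seen, stood at 73.1 and 49.2 CPM in parental cells and at 56 and 469 CPM in empty vector libraries I and II (adjusted p = 0.0316). AARS stood at 278 and 184, then 734 and 2211 CPM (log2 2.67, SE 0.44, adjusted p = 0.00131). AARS was thus above both parental libraries in both empty vector libraries, and ASNS in library II alone.

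Medians of the enzymes and transporters of amino acid supply were also higher in library II than in library I. Of 18 serine, one-carbon and asparagine synthesis genes 11 rose and none fell, with medians of 0.51 (library I) and 1.83 (library II). Of 20 cytosolic tRNA synthetases 11 rose and none fell (0.57 and 1.22), and of 14 amino acid transporters 3 rose and 1 fell (-0.12 and 1.32). With GC and length offsets the medians were 0.55 and 2.13 for synthesis genes, 0.52 and 1.22 for synthetases and 0.15 and 0.84 for transporters. PYCR1, a proline synthesis enzyme, stood at 193 and 88.6 CPM in parental cells and at 414 and 2261 CPM with empty vector (log2 3.25, adjusted p = 0.00525). MTHFD1L, a mitochondrial folate enzyme, stood at 110 and 75.6 against 260 and 375 CPM (log2 1.77, adjusted p = 0.000885). SLC6A9, a glycine transporter, stood at 4.14 and 3.62, then 6.31 and 156 CPM. PYCR1 and MTHFD1L were higher in both empty vector libraries, whereas for SLC6A9 library I was near the parental level; without library II its call was lost (log2 0.69, adjusted p = 0.194), as it was without parental library II (log2 4.28, adjusted p = 0.0724). PYCR1 lost its call without parental library II (log2 2.78, adjusted p = 0.0586). Without empty vector library II, 5 synthesis genes rose and 1 fell, 3 synthetases rose and 2 transporters rose; without parental library II, 2, 3 and 1 rose. The fit of the 6 SW480 libraries called none of the 52 genes. Of 24 chaperones and genes of the IRE1-XBP1 branch, another arm of the endoplasmic reticulum response, 2 rose and 4 fell. XBP1, its transcription factor, rose from 52.1 and 44.2 to 154 and 296 CPM (log2 2.22, adjusted p = 0.000432).

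Ribosomal, mitochondrial and keratin transcripts were also higher in library II than in library I. Of 45 cytosolic ribosomal protein genes 18 rose and none fell, with medians of 0.69 (library I) and 1.56 (library II). The 13 mitochondrially encoded mRNAs had medians of 0.47 and 1.78, 9 rising and 1 falling, and 13 keratins had medians of 0.19 and 2.62, 7 rising and 3 falling. KRT8, a keratin of simple epithelium, stood at 2369 and 1225 CPM in parental cells and at 3638 and 13641 CPM with empty vector (log2 2.27, adjusted p = 0.0143), and MT-CO3, a respiratory chain subunit, at 5041 and 4726 against 9992 and 26347 CPM (log2 1.90, adjusted p = 0.00924). Library II was the highest of the 4 for both genes, and library I was above both parental libraries. With GC and length offsets the medians in empty vector libraries I and II were 0.58 and 1.36 for ribosomal proteins. They were 0.33 and 2.27 for mitochondrial mRNAs and 0.35 and 0.91 for keratins, a smaller keratin gap than without offsets. SW480 with ERB was raised too: its library I stood at 1.43, 1.33 and 1.61 for the 3 lists without offsets, and its library II at 0.93, 0.55 and 1.13. Parental library I had a ribosomal median of 0.47, and 0.41 with offsets. Without empty vector library II, 4 ribosomal, 1 mitochondrial and 1 keratin gene rose, and the calls of KRT8 (adjusted p = 0.175) and MT-CO3 (adjusted p = 0.0717) were lost. Without parental library II, 2, 0 and 0 rose, and both calls were lost as well (adjusted p = 0.124 and adjusted p = 0.0599). None of the 3 lists had a gene that rose in the fit of the 6 SW480 libraries.

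Mitotic genes stood lowest in empty vector library II. Of 35 G2 and mitosis genes 8 fell and 2 rose, with medians of -0.24 (library I) and -1.90 (library II), and -0.14 and -0.84 with GC and length offsets. ASPM, a spindle pole protein, stood at 8.27 and 58.7 CPM in parental cells and at 3.08 and 1.56 CPM with empty vector (log2 -3.83, adjusted p = 0.00618), and TTK, a spindle checkpoint kinase, at 8.89 and 64.6 against 3.91 and 1.45 CPM. For both genes parental library II was far above parental library I, and without parental library II both calls were lost (ASPM log2 -1.81, adjusted p = 0.0796; TTK log2 -1.70, adjusted p = 0.122). TTK also lost its call without empty vector library II (log2 -3.24, adjusted p = 0.0578), and the list then had 1 gene lower. The fitted median of the 35 was -0.85, against -0.45 without parental library II and -1.96 without empty vector library I. The same medians over all genes were -0.11, 0.03 and -0.42. The fit of the 6 SW480 libraries called none of the 35. Of 36 DNA replication genes 2 rose and 3 fell. Their fitted median was -0.08, and -0.56 without empty vector library I. Of 21 G1 cyclins and CDK inhibitors 8 fell and none rose, with medians of -0.55 and -1.51, and -0.72 and -1.36 with GC and length offsets. The fitted median of these 21 genes was -0.82. It was -0.75 without parental library II, -0.61 without empty vector library II and -1.75 without empty vector library I. CDKN1A, the inhibitor p21, stood at 98.8 and 60.3 against 2.93 and 7.46 CPM (log2 -3.95, SE 0.48, adjusted p = 0.000222), and CDKN1B, the inhibitor p27, at 31.7 and 48.6 against 9.31 and 6.68 CPM (log2 -2.32, adjusted p = 0.00188). Cyclin D1 and these inhibitors were lower in both empty vector libraries.

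**Figure D4:**
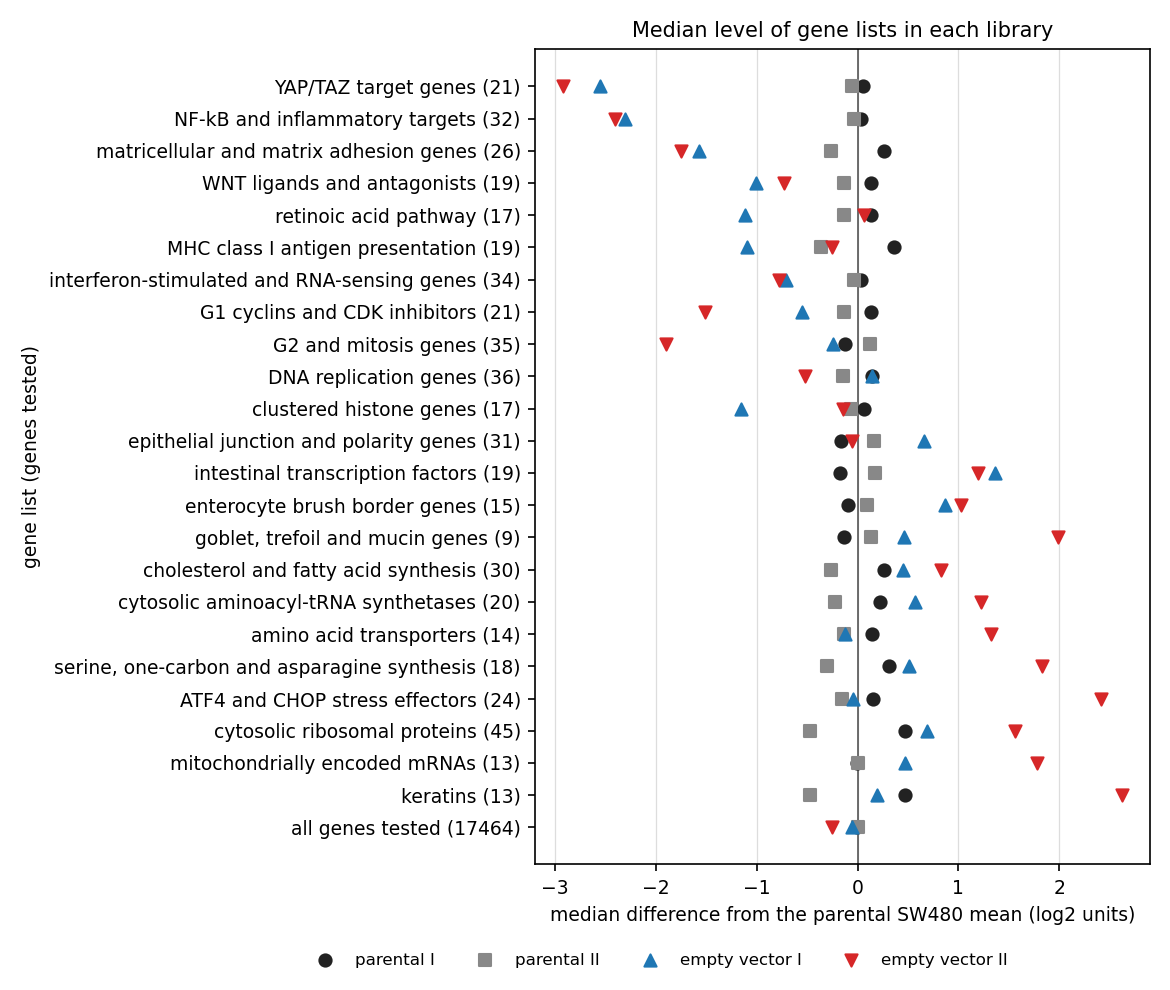
Median difference of each gene list from the parental SW480 mean, in log2 units, 1 point per library, with the number of genes tested in brackets. YAP/TAZ and NF-kB genes are low in both empty vector libraries (-2.56 and -2.92, -2.31 and -2.41), intestinal transcription factors are high in both (1.37 and 1.19), and ATF4 and CHOP effectors have a high median in library II (-0.05 and 2.42).

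Metabolic genes moved gene by gene. Of 30 cholesterol and fatty acid synthesis genes 10 rose and 1 fell. The number that rose was 5 without parental library II and 6 without empty vector library II, and the fit of the 6 SW480 libraries called 1. SCD, a fatty acid desaturase, stood at 72.3 and 81.1 CPM in parental cells and at 574 and 264 CPM with empty vector (log2 2.45). Of 32 hypoxia and glycolysis genes 10 rose and 6 fell; without parental library II 4 rose and 4 fell, and without empty vector library II 6 rose and 5 fell. CA9, a carbonic anhydrase of hypoxic cells, rose from 4.08 and 3.49 to 38.8 and 232 CPM, and TXNIP, an inhibitor of glucose uptake, from 60.4 and 58.9 to 228 and 258 CPM. Both empty vector libraries were above both parental ones for these 3 genes, and TXNIP was nearly equal in the 2. MT1E and MT1F, metallothioneins that bind zinc, fell with log2 differences of -4.48 and -3.99, among 3 of 9 genes of their list; reads of these close copies are uncertain. Of 17 retinoic acid pathway genes 6 fell and 1 rose; ALDH1A3, which makes retinoic acid, went from 217 and 436 to 13.1 and 3.56 CPM. Of 17 clustered histone genes 6 fell and 2 rose, with HIST1H2AC at 31.5 and 32.6 against 3.23 and 4.67 CPM; reads of clustered histone genes are shared between close copies and are uncertain.

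Whether the difference was the same in the other line was tested as an interaction, the difference in SW480 minus the difference in SW620. It passed for 1258 of 17464 genes (7.2%), 525 with a higher and 733 with a lower difference in SW480. Of these, 1249 were also called within SW480, each in the same direction; the 2 tests share the SW480 libraries. Leaving out 1 library gave 345 genes (without SW620 empty vector library II) to 7778 (without SW480 empty vector library I). For FN1 the parental and empty vector means in SW620 were 17.1 and 11.5 CPM (interaction log2 -4.97, adjusted p = 0.000211). For GABARAPL1 they were 2.51 and 2.38 CPM (interaction log2 -6.79, adjusted p = 6.77e-05), and for TGM2 20.9 and 30.6 CPM (interaction log2 -6.07, adjusted p = 0.000893). For HNF4A they were 131 and 177 CPM (interaction log2 2.50, adjusted p = 0.00149), and for VIL1 532 and 585 CPM (interaction log2 2.46, adjusted p = 0.00176). For these 5 genes the SW620 groups were close to each other, and both SW480 empty vector libraries were nearer to them than to parental SW480. CDH1 (interaction log2 1.43, adjusted p = 0.125) did not pass; in SW620 it stood at 16.6 and 50.1 CPM. By list, the test passed with a lower difference for 13 of 32 NF-kB targets, 10 of 26 matrix genes and 10 of 21 YAP/TAZ genes, and with a higher one for 6 of 19 intestinal transcription factors and 4 of 24 ATF4 and CHOP effectors.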

How the data were processed

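RNA of 16 libraries from SW480 and SW620 was sequenced after a stranded poly(A) preparation, per the labels' protocols. The authors deposited counts of reads per gene and FPKM values, which divide by transcript length and depth; the submitters' processing notes name TopHat2 2.0.4, HTSeq 0.6.1, Cufflinks 2.1.1 and GRCh37. Strand setting and annotation are not given in the sources used here.

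Counts of all 16 libraries in 8 groups were filtered with filterByExpr, scaled with TMM and fitted with edgeR 4.0.16 in R 4.3.3. Per-library log2 differences add 0.5 CPM. Alternatives used limma 3.58.1, DESeq2 1.42.0, FPKM with a pseudocount of 1 or 0.1, other filters, other sets of libraries and offsets for GC and length (98% of genes matched, GRCh38 transcripts). Only the edgeR comparisons, within SW480 and between the lines, were tested on simulated counts. Those counts had the same fixed spread in all libraries and did not copy the gap between the empty vector libraries. List medians, offsets, ratios, floors and the other fits were not simulated. The libraries compared and all 42 gene lists were chosen with earlier results of these data known. Genes named were up to 4 called members per list by p, the 10 largest changes per direction with less than 1.5-fold between the empty vector libraries (met by construction at 0 reads), the 10 largest ratios between those libraries and the 8 largest differences between lines per direction; others are marked as picked later. A few genes that this rule names are not reported here. Floors of 3 reads cover counting error only.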

Additional observations from a re-analysis of the deposited data

Results flagged for a closer look

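The difference between empty vector and parental cells was not the same in SW480 and SW620 for 1258 genes, by the interaction test of edgeR. Among called genes at 5 CPM or more, those with the largest higher difference in SW480 were NUPR1 (log2 difference between lines 7.67), INHBE (7.65), CHAC1 (6.3), S100P (5.5), CA9 (5.39), ABCG1 (5.11), GAL3ST1 (5.01) and CDHR2 (4.88). NUPR1, a stress-induced nuclear protein, INHBE and CHAC1 rest mainly on empty vector library II. There they stood at 56.8, 63.1 and 52.9 times the level of library I, where NUPR1 was at the floor of 3 reads. S100P, a calcium-binding protein, stood at 24.7 and 393 CPM in empty vector libraries I and II, against 7.97 and 1.75 CPM in parental SW480. CDHR2 and CA9 were above both parental SW480 libraries in each empty vector library. The largest lower difference with a fitted value was that of EPB41L4A (-10.14). For the remaining 7 genes a group had no read, so no fold is given. The adjusted p of the difference between lines was 0.0457 for SAA2, 0.0167 for IQGAP2, 0.0116 for KLF7, 0.00928 for TLE4, 0.0338 for BDNF, 0.0113 for SLC25A27 and 0.0427 for VAT1L.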

How the results depend on the processing

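The count of genes called between empty vector and parental SW480 (5399) was 3521 on FPKM with a pseudocount of 0.1, 3256 with the 12 untreated libraries, 2069 with a minimum of 2-fold, 704 with the 6 SW480 libraries and 1217 with the 4 libraries compared. Leaving out 1 library gave 2122 (without parental II) to 10643 (without empty vector I). The other settings gave 3681 to 7096 genes. The interaction count (1258) was 3398 without the filter, 2780 with DESeq2, 541 with the 12 untreated libraries, 535 with a minimum of 2-fold and 3816 with GC and length offsets, and leaving out 1 library gave 345 (without SW620 empty vector II) to 7778 (without SW480 empty vector I). With a replicate block the counts were 4093 and 829; the labels give libraries I and II only shared numbers, and same-numbered deviations correlated from -0.91 to 0.87 over 28 pairs of groups. POLE, called higher in the counts, had log2 differences of -0.16, -0.16 and -0.16 on the 3 FPKM settings; the cause was not tested. No other of the 179 named genes reversed in any of the settings run. Of these genes, 90 lost their call with the 6 SW480 libraries, 31 without empty vector II and 38 without parental II.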
